A study of Mus musculus with 54 samples.

Results

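The genes described here are named for the mitochondrial ribosome and the mitochondrial import machinery, and most encode their proteins. They were chosen by symbol, as every protein-coding gene of the GENCODE annotation of the mouse genome build GRCm39 whose name starts with Mrpl, Mrps, Tomm or Timm, which gave 104 of 21757 protein-coding genes (49 Mrpl, 29 Mrps, 10 Tomm and 16 Timm genes). The study asked where KRAB zinc finger proteins (KZFPs) encoded by a young gene cluster on chromosome 4 of C57BL/6J mice bind the genome. F9 cells, a mouse embryonal carcinoma line, were made to over-express 1 of 42 KZFPs each, with a C-terminal 3xHA tag, from a Sleeping Beauty transposon vector under puromycin selection, and the tagged protein was mapped by chromatin immunoprecipitation and sequencing (ChIP-seq). Each KZFP has 1 library, spread over 5 batches, and each list holds the peaks of that library. The shared controls were 5 mixed inputs, 1 for each batch, and 4 libraries of cells with the empty vector, from batches 1, 2 and 4, and these were not analysed here beyond the authors' own use of them. Because the KZFPs were over-expressed and tagged, a peak is a site that the tagged protein occupied in these cells, and no library measured the level of any gene.

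The mitochondrial ribosome translates the few proteins that the mitochondrial genome encodes, and all of its own proteins are made in the cytosol from nuclear genes. Most Mrpl genes encode proteins of its large subunit and most Mrps genes those of its small subunit. Proteins bound for mitochondria cross the outer membrane through the TOM complex, for which the Tomm genes are named. Many then cross or enter the inner membrane through the TIM complexes, for which the Timm genes are named. A symbol does not settle the role, as Tomm34 is a cytosolic cochaperone. KZFPs are DNA-binding repressors with a KRAB domain, best known for binding retrotransposons, so promoters of housekeeping genes are not the sites they are usually studied for.

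A promoter peak was defined as a peak whose summit, its point of highest enrichment, lies within 1000 bp of an annotated transcription start of a protein-coding gene. Of 24975 peaks on chromosomes, 5036 were promoter peaks (20.2%), and the share in single lists ran from 0 to 68.3%. Fold enrichment is the ratio of ChIP to input signal that the authors' peak caller gave each peak. It is relative to the input of its batch, so folds are not on 1 scale between lists, and peaks were compared by their position in their own list. Folds of different KZFPs given in the same paragraph are values side by side and set no order. Of the 42 lists, 32 start at a fold of 10 or more and 10 reach down to a fold of 5.00. The files hold no read counts, so the depth behind a fold is unknown from them. By the read numbers that the study lists, the Zfp982 library is the deepest of the 42 KZFP libraries. The part of depth in the length of its list was not tested. With 1 library for each KZFP there was no replicate check and no test was made between KZFPs. Every interval given is an exact 95% binomial one, which accounts for counting error and nothing else.

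The summits at Tomm20, Mrpl48 and Mrpl14 are the sites where the sequence came within 2 bases of the motif that the study's supplement lists for the KZFP bound there, and are shown here for that reason. Capitals mark the site, and each run is the plus strand of GRCm39, 5′ to 3′. The Tomm20 run is chr8:127672749-127672809, just outside the gene, under a Zfp982 peak. The Mrpl48 run is chr7:100256904-100256933, in a UTR, under a Zfp_MB016 peak. The Mrpl14 run is chr17:45995844-45995873, upstream of the gene and in a UTR of another transcript, under a Zfp982 peak.
Tomm20: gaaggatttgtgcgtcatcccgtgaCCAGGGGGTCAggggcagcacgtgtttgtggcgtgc
Mrpl48: cacgcacgcACGTCCGAGGCCGgcagggcg
Mrpl14: gccaggacgtAGACCCTCTGGtacccggga

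The other summits fell into CpG-rich and CpG-poor sequence, judged in the 200 bp around each summit. Of these, 6 are shown with each CpG (a C followed by a G) in capitals. Timm23 (chr14:31924108-31924137, UTR, Zfp_MB016) and Mrps26 (chr2:130405728-130405788, coding exon, Zfp982) had the highest fold of the Zfp_MB016 peaks at these genes and the second, after Tomm20, of the Zfp982 peaks. Mrps6 had a peak of Zfp982 (chr16:91855429-91855489, intron) and one of Zfp_MB003 (chr16:91855055-91855084, UTR). The short run of the Zfp_MB003 peak holds few of the 25 CpG of its 200 bp. Mrps21 (chr3:95779471-95779531, outside the gene, Zfp_MB010) and Timm10 (chr2:84656647-84656707, intron, Zfp_MB026) are CpG-poor. All runs are on the plus strand.
Timm23: gCGcCGagaaggaggCGcagtcCGtccctg
Mrps26: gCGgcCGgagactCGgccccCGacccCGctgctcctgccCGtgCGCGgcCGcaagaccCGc
Mrps6, Zfp982: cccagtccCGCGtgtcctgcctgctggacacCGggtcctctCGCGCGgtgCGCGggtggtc
Mrps6, Zfp_MB003: gggagggcaagcaggaagcCGttgaggtgc
Mrps21: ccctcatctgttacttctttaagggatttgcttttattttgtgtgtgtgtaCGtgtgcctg
Timm10: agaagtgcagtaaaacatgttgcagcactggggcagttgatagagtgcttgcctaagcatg

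Of the 104 genes, 21 had at least 1 promoter peak in any list (20.2%, interval 13.0% to 29.2%). The background was 20.3%, which is 4418 of all 21757 protein-coding genes, and among the 21653 protein-coding genes outside the set 4397 had one, also 20.3%. The share of mitochondrial ribosome and import genes with a peak therefore lay at the background. The remaining 83 genes had no promoter peak. The 21 genes carried 23 peaks, 0.457% of all promoter peaks (interval 0.290% to 0.685%), while the 104 genes make up 0.478% of protein-coding genes. That share of 5036 promoter peaks would be 24.1 peaks.

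The Mrpl and Mrps genes had peaks at 15 of 78 (19.2%) and the Tomm and Timm genes at 6 of 26 (23.1%). Within them, 11 of 49 Mrpl genes (22.4%), 4 of 29 Mrps genes (13.8%), 4 of 10 Tomm genes (40.0%, interval 12.2% to 73.8%) and 2 of 16 Timm genes (12.5%) had a promoter peak. All 4 Tomm genes came from the list of Zfp982, so they are 1 library's result. Each of the 4 intervals held the background share.

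**Figure D1:**
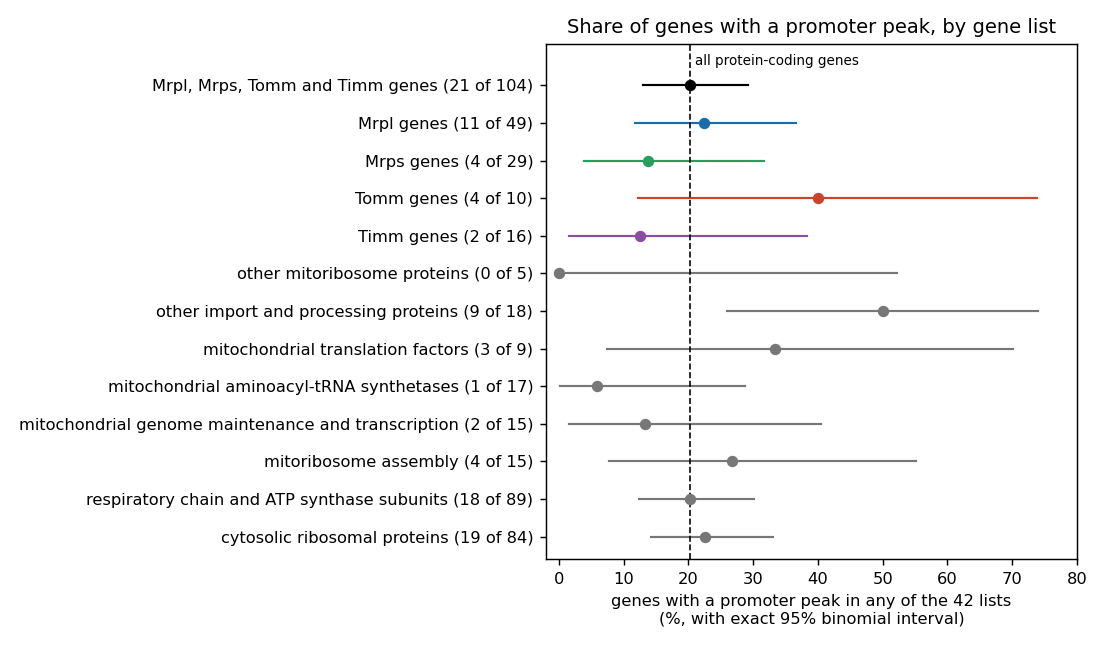
Percentage of genes with a promoter peak in any of the 42 lists (x axis, %) for the 104 genes, their 4 families and 8 other gene lists (y axis), with points for the share and lines for the exact 95% binomial interval. The dashed line is the share of all protein-coding genes, 20.3%. The 104 genes sit on the line. Only the interval of the other import and processing proteins lies wholly above it, and this is no test. There, 6 of the 9 genes have a peak of Zfp982 alone (3 of 18 without that list) and 2 share 1 peak. That gene list was written with earlier results of these data known.

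Of the 42 KZFPs, 7 had a peak at these genes. Among them, Zfp_MB003 and Zfp981 had such peaks only at folds below the cutoff that the authors used for most lists. The other 35 lists held 856 promoter peaks together and none at the 104 genes; the longest of these by promoter peaks, Zfp_MB001, had 203. Most of the 23 peaks came from the lists with most promoter peaks. Zfp982 had 9 among 2302 promoter peaks, which are 48.5% of its list, against 11.0 for the genes' share of protein-coding genes; 9 of the 104 genes had a peak, with a background of 11.4% of protein-coding genes. Zfp_MB016 had 6 among 1046 promoter peaks (16.95% of its list) against 5.00, at 5 genes, with a background of 5.25%. Zfp_MB026 had 2 among 403 (9.82% of its list) against 1.93, with a background of 2.01%.

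The remaining lists gave 1 to 3 peaks each. Zfp_MB003, whose list is the one richest in promoter peaks (246 peaks, 68.3%), had 3 against 1.18, with a background of 1.34%. The interval of its share, 0.252% to 3.52% of its promoter peaks, held the genes' share of 0.478%. Zfp_MB014 had 1 among 84 promoter peaks (6.72% of its list; background 0.427%), Zfp981 had 1 among 94 (28.1% of its list; background 0.45%) and Zfp_MB010 had 1 among 5 (11.6% of its list; background 0.0276%). For Zfp_MB010 this was 1 peak of a list of 43, and the interval of its share ran from 0.505% to 71.6%. The lists of Zfp_MB003 and Zfp981 have the authors' lower fold cutoff and start at folds of 5.00 and 5.01. Their promoter peaks have median folds of 5.51 and 5.42. Their peaks at Mrps6, Mrpl49, Mrpl40 and Mrpl20 have folds from 5.65 to 6.61. At the higher cutoff used for most lists these peaks would be absent.

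By batch, the 23 peaks split into 9 of 2303 promoter peaks in batch 1, none of 24 in batch 2, 6 of 679 in batch 3, 8 of 1925 in batch 4 and none of 105 in batch 5. The 9 of batch 1 are all of Zfp982. Batch and KZFP cannot be told apart, because each KZFP was mapped in 1 batch. Without the list of Zfp982, 13 of the 104 genes (12.5%) had a promoter peak against 11.5% of protein-coding genes. Without Zfp_MB016 the shares were 15.4% and 16.96%.

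**Figure D2:**
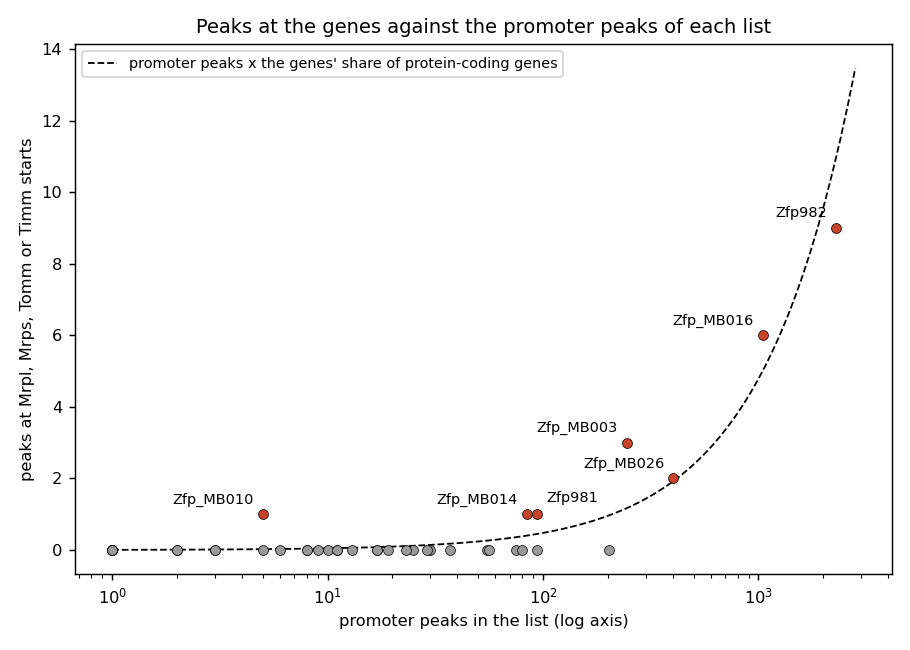
Peaks at the 104 genes (y axis, count) against the promoter peaks of each list (x axis, count, log axis), with 1 point for each KZFP that has a promoter peak, red where it has a peak at the genes. The dashed curve is the number of promoter peaks times the genes' share of protein-coding genes. Zfp982 lies below the curve at 9 peaks, while Zfp_MB016, Zfp_MB003, Zfp_MB026, Zfp_MB014, Zfp981 and Zfp_MB010 lie above it at 6, 3, 2, 1, 1 and 1, Zfp_MB026 by the least (2 against 1.93). For Zfp_MB014, Zfp981 and Zfp_MB010 the curve is at 0.402, 0.449 and 0.0239, so any single peak places them above it. The remaining 35 lists are at 0 (3 of them have no promoter peak and are not drawn).

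Among the import genes, Tomm20 had the peak nearest to the top of its list. Tomm20, ENSMUSG00000093904, encodes a receptor of the outer membrane that recognises proteins with a targeting presequence. Its Zfp982 peak (chr8:127671589-127673717) had a fold of 185.2 and was second of the 4746 peaks of the list by fold. The summit lay 90 bp upstream of the start, and no other gene had a start within reach. Timm23 encodes the channel of the inner membrane translocase for presequence proteins. Its peak of Zfp_MB016 (chr14:31923660-31924508) had a fold of 64.7, position 242 of 6183, with the summit 140 bp downstream of the Timm23 start. Parg, the gene for the enzyme that degrades poly(ADP-ribose), has a start 134 bp from this summit, so the peak cannot be given to 1 of them.

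The other import genes had peaks in the lower part of their lists. Tomm7 and Tomm6, small subunits of the TOM complex, had Zfp982 folds of 10.8 and 12.1. The Tomm7 summit was 25 bp downstream of its start, while the Tomm6 summit was 652 bp upstream of its own and 8 bp from a start of Frs3. Tomm34, a cytosolic cochaperone, had a Zfp982 fold of 11.4 with the summit 27 bp upstream and a start of Stk4 963 bp away. Timm10, a small chaperone of the intermembrane space, had a Zfp_MB026 fold of 11.2 at position 3572 of 4106. Its summit was in an intron, 456 bp upstream of an alternative start and 10016 bp from the 5′ end of the gene record.

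Of the small-subunit genes, Mrps26 (ENSMUSG00000037740) had the higher of the Zfp982 folds. Its peak (chr2:130405336-130406288) had a fold of 53.9, position 229 of 4746, with the summit 61 bp downstream of a start and in a coding exon, with no other gene in reach. Mrps21 had the only promoter peak of Zfp_MB010 at these genes, at a fold of 18.9 and position 8 of 43, with the summit 622 bp upstream. Mrps18b had a Zfp_MB014 fold of 14.1, with the summit 701 bp upstream and Ppp1r10 nearer at 219 bp.

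Mrps6 was the one gene of the 21 with peaks of 2 KZFPs. Zfp982 had a fold of 11.7 there, at position 3778 of 4746, and Zfp_MB003 a fold of 6.61, at position 44 of 360. The 2 peaks overlapped, and their summits lay 242 bp and 95 bp upstream of alternative Mrps6 starts, with Slc5a3 and Gm49711 also in reach. Both summits were inside the gene, 494 bp and 105 bp downstream of the 5′ end of the gene record. Of all protein-coding genes with a promoter peak, 816 of 4418 (18.5%) had peaks of 2 or more KZFPs, against 1 of 21 (4.76%) here. This difference was not tested. The Zfp_MB003 peak comes from a list with the authors' lower fold cutoff. At the higher cutoff used for Zfp982, Mrps6 would have a peak of Zfp982 alone. The background at that cutoff was not computed.

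The 11 large-subunit genes had 12 peaks. Mrpl48 had 2 of them, both of Zfp_MB016. The stronger had a fold of 36.3 (position 869 of 6183), with the summit 6 bp from a start of Rab6a. This summit was 89 bp upstream of an alternative Mrpl48 start and 574 bp downstream of the 5′ end of the gene record. The weaker had a fold of 10.1 (position 6098), 183 bp downstream of an alternative start that lies far inside the gene. Mrpl44 had a Zfp_MB026 fold of 25.5. Its summit was 7 bp upstream of an alternative start, 91 bp downstream of the 5′ end of the gene record and 34 bp from a start of Wdfy1. Mrpl36, Mrpl3 and Mrpl39 had Zfp_MB016 folds of 19.1, 17.8 and 10.0. Their summits lay 85 bp, 21 bp and 71 bp downstream of a start, with no other gene in reach.

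Mrpl33, Mrpl14 and Mrpl17 had Zfp982 folds of 19.8, 14.5 and 11.2. The Mrpl33 summit was 62 bp upstream of an alternative start and 17155 bp downstream of the 5′ end of the gene record. The Mrpl17 summit was 5 bp downstream of a start, while that of Mrpl14 was 517 bp upstream, with a start of Tmem63b 644 bp away. Mrpl49 and Mrpl40 each had a Zfp_MB003 fold of 6.01 with the summit 4 bp upstream of a start. Fau, which encodes a cytosolic ribosomal protein fused to a ubiquitin-like protein, has a start 19 bp from the Mrpl49 summit, and Hira has one 490 bp from the Mrpl40 summit. Mrpl20 had the Zfp981 peak, with a fold of 5.65 and the summit 34 bp downstream.

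Ranked by fold among the promoter peaks of their own list, the 23 peaks had a median position 41.3% of the way down. There were 12 in the top 50% and 4 in the top 10%, those of Tomm20, Timm23, Mrps26 and, for Zfp_MB003, Mrps6. As a group the peaks were thus spread over their lists, with the single Tomm20 peak near the top of the longest promoter list.

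**Figure D3:**
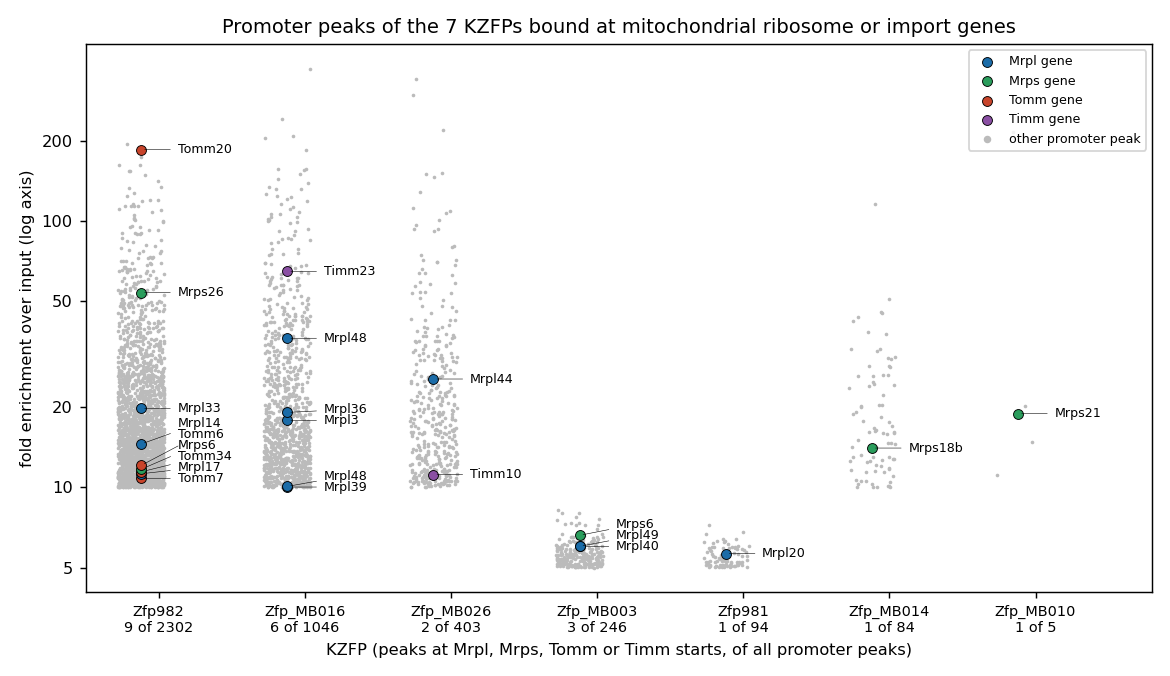
Fold enrichment over input (y axis, log axis) of every promoter peak of the 7 KZFPs (x axis, with the number of peaks at the 104 genes and of all promoter peaks), in grey, with the 23 peaks at the 104 genes coloured by family and named. Tomm20 (185.2), Timm23 (64.7) and Mrps26 (53.9) stand high in their lists, and the lists of Zfp_MB003 and Zfp981 start at 5.00 and 5.01, where the authors used a lower cutoff.

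The summits lay close to the starts. The median distance to a start of the gene was 85 bp, with 15 of 23 within 100 bp, 18 within 250 bp and 5 beyond 400 bp. All 5 of those, at Timm10, Mrpl14, Mrps21, Tomm6 and Mrps18b, were upstream. To the nearest start of any protein-coding gene, 16 of 23 (69.6%) were within 100 bp, against 47.6% of all 5036 promoter peaks. The 104 genes have more annotated starts, a median of 8 against 5 for all protein-coding genes. The part of this in the distances was not tested. Of the summits, 12 were in a UTR, 6 outside the gene, 2 in an intron, 2 in an exon of a non-coding transcript and 1 in a coding exon.

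**Figure D4:**
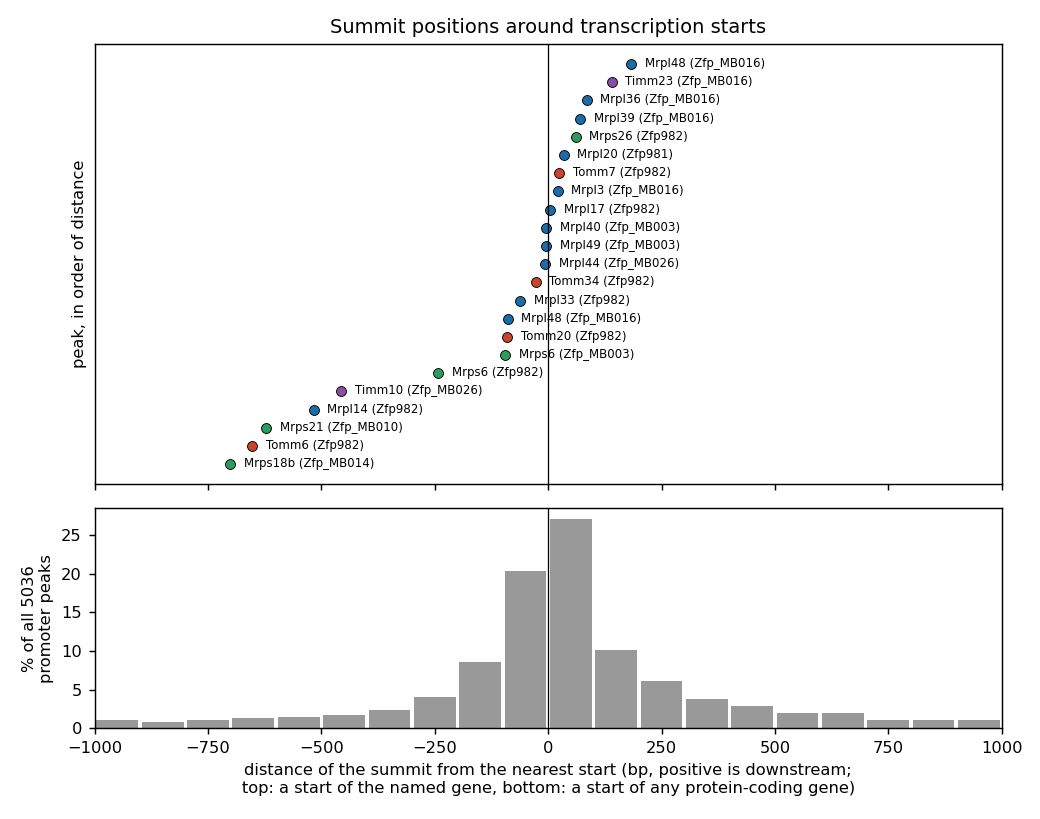
Upper panel, distance of each of the 23 summits from the nearest start of the named gene (x axis, bp, positive downstream), coloured by family and ordered by distance, with the KZFP in brackets. Lower panel, percentage of all 5036 promoter peaks (y axis) in bins of 100 bp around the nearest start of any protein-coding gene. In the upper panel 18 summits lie within 250 bp and the other 5 lie 456 to 701 bp upstream.

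Near the distance limit, the farthest summit inside it was that of Mrps18b at 701 bp. The nearest outside it was a Zfp982 peak 1686 bp downstream of an alternative start of Timm44, with a fold of 31.1. Timm44 is on the minus strand at chr8:4309718-4325931, and this summit, at 4309049, lies beyond the 3′ end of the gene. Timm44 couples the inner membrane channel to the import motor. For the 83 genes without a promoter peak, the nearest summit in any list lay a median of 26752 bp from a start, and for 67 of them it was more than 10000 bp away. No matching values for other genes without a promoter peak are given here, so whether these distances are unusual is unknown. Within gene bodies but away from starts there were 7 more peaks, in Mrps5, Mrps6, Mrps35, Mrps27 and Mrpl52, with folds from 12.1 to 20.9. Together 25 of the 104 genes (24.0%) had a peak at a start or in the gene, against a background of 33% of all protein-coding genes. The genes are shorter than most, with a median length of 8774 bp against 19173 bp, and the part of length in this share was not tested.

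Many of the 104 genes share their start region with a neighbour. A start of another protein-coding gene lay within 1000 bp for 45 of 104 (43.3%), against 15.9% of all protein-coding genes. Of the 23 peaks, 11 (47.8%) had a second gene in reach, against 9.75% of all promoter peaks, and in 4 the neighbour's start was the nearer. Among genes with such a neighbour, 11 of 45 here (24.4%) and 28.6% of all had a promoter peak. Among those without, the shares were 10 of 59 (16.9%) and 18.7%. The shares of the 104 genes were thus near, and slightly below, the background of either kind.

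The promoters of the 104 genes were richer in CpG than those of other genes. In the 300 bases from 250 before the gene start, the median ratio of observed to expected CpG was 0.712, against 0.433 for all protein-coding genes. The 21 genes with a peak and the 83 without had medians of 0.727 and 0.702. Most summits at these genes lay outside these 300 bases, the Mrpl33 summit 17155 bp from the 5′ end of the gene record. The values thus describe the genes and not the sequence under the peaks. With CpG-rich defined as a GC content of at least 50% and a ratio of at least 0.6, 60 of the 104 promoters (57.7%) were CpG-rich, against 32.3% of all. Of these 60, 14 (23.3%) had a promoter peak, against 33.2% of the 7030 CpG-rich protein-coding genes. Of the other 44, 7 (15.9%) had one, against 14.1% of the remaining 14727 genes.

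The summit windows of 200 bp held a median of 20 CpG and 66.5% GC, near the 18 CpG and 67.5% GC of all promoter peaks and above the 4 CpG and 50.0% GC of peaks elsewhere. The windows fell into 19 with 12 to 33 CpG and 4 with 2 to 6. Those 4 were at Timm10, Mrpl14, Mrps21 and Mrps18b, which are also 4 of the 5 peaks more than 400 bp from a start of the gene. Windows with under 10 CpG made up 26.6% of all promoter peaks and 85.4% of the peaks elsewhere. The runs shown above for Mrps21 and Timm10 hold 1 and 0 CpG, and the run for Mrps26, of the same length, holds many.

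The KZFPs' own motifs were mostly missing from these windows. The 1 exact match was at Mrpl14, where the Zfp982 motif, 11 bases long, lay with its centre 3 bp from the summit. Tomm20 and the stronger Mrpl48 peak came within 2 mismatches, and in the other 20 windows the best site had 3 or more. With positions counted from 1 at the 5′ end of the motif, the Tomm20 site, which reads on the minus strand, differs by A1T and T7C and its centre lies 1 bp from the summit. The Mrpl48 site differs from the Zfp_MB016 motif by T7G and G12C, with its centre 15 bp from the summit.

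This scarcity was shared with the promoter peaks of the same lists. The Zfp982 motif was exact in 0.434% of the windows of its 2302 promoter peaks, in 40.0% of its 2443 other windows and in 0.0230% of all protein-coding promoters in windows of equal length. With up to 2 mismatches, as at Tomm20, the shares were 10.5%, 57.5% and 7.68%. The Zfp_MB016 motif was exact in 1.15% of its promoter windows, in 47.0% of the others and in 0.0138% of all promoters, and with up to 2 mismatches, as at Mrpl48, in 11.9%, 69.1% and 0.565%. A missing match says only that these letters were not in the window.

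None of the 23 windows had a look-alike in its own list, meaning another summit window to which it aligned over 100 bp or more with an identity of 80% or above, as copies of a repeat would. Among Zfp982 windows 2.00% at promoters and 52.4% elsewhere had one, and among Zfp_MB016 windows 3.15% and 70.1%. Because look-alikes were this rare at promoters, finding none in 23 windows cannot tell these peaks from the other promoter peaks of their lists.

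Short motifs of general promoter factors were searched on both strands in the 300-base promoters. GCATGCGC, a core of NRF1, a regulator of nuclear genes for mitochondrial proteins, was in 8 of the 104 (7.69%), against 3.28% of all protein-coding promoters. CCGGAAGT of the ETS factors was in 10 (9.62%), against 3.53%, and AAGATGGCG of YY1 in 3 (2.88%), against 1.09%. GGGCGG of SP and KLF factors was in 41 (39.4%), against 35.8%, CCAAT of NFY in 36 (34.6%), against 39.8%, and the element CTCGCGAG in 1 (0.962%), against 0.901%. None of these motifs contains another. Split by peaks, NRF1 matches were in 0 of 21 promoters with a peak and 8 of 83 without, beside 3.98% of all protein-coding genes with a promoter peak, and GGGCGG was in 12 of 21 (57.1%) and 29 of 83 (34.9%), beside 52.0% of them. The 300-base promoters are set by the 5′ end of the gene record, and most of the 23 summits lay outside them. This split therefore does not describe the sequence under the peaks. In the 23 summit windows themselves, GGGCGG was in 10 (43.5%), against 53.5% of all promoter peak windows, and GCATGCGC in 2 (8.70%), those of Mrpl17 and Tomm7, against 2.44%.

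Other genes of the pathway were taken from lists written by role, with earlier results of these data known. In 6 such lists, 19 of 79 genes (24.1%) had a promoter peak, beside the background of 20.3%. The import and processing proteins without a Tomm or Timm name had the largest share, 9 of 18 (50.0%, interval 26.0% to 74.0%). This rests on 1 library: 6 of the 9 had a peak of Zfp982 alone, and without that list 3 of 18 (16.7%) had a promoter peak, beside 11.5% of protein-coding genes. The 4 genes named by their fold were Pmpca, Hspd1, Hspe1 and Gfer. Pmpca, a subunit of the processing peptidase, had a Zfp982 fold of 25.0. Hspd1 and Hspe1, the matrix chaperonin and its cochaperonin, share 1 Zfp982 peak of fold 22.3. Gfer, of the intermembrane space relay, had a Zfp_MB026 fold of 17.4 and also a peak of Zfp982. Because Hspd1 and Hspe1 share a peak, the 9 genes are not 9 separate sites.

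Of 5 mitochondrial ribosome proteins without an Mrpl or Mrps name none had a peak. Of the factors for ribosome assembly 4 of 15 did, among them Dhx30 (31.9, Zfp_MB016) and Malsu1 (25.7, Zfp_MB016). Dhx30 also had a peak of Zfp982, and Malsu1 had peaks of Zfp988 and Zfp_MB001 too. Of the translation factors 3 of 9 had a peak, namely Tsfm (37.5, Zfp_MB016), Mtrf1l (11.5, Zfp982) and Tufm (5.26, Zfp_MB003). Of 17 mitochondrial aminoacyl-tRNA synthetases 1 had a peak, Fars2 (12.1, Zfp982). Of 15 genes that maintain or transcribe the mitochondrial genome 2 did, Tfam, which packages the genome, with peaks of 2 KZFPs, and Polrmt, its RNA polymerase, with peaks of 13. Of those 13 lists, the ones of Zfp600, Zfp980, Zfp981 and Zfp_MB011 reach down to folds of 5.00 to 5.01. How many other promoters recur in so many lists is not given here. The respiratory chain and ATP synthase had 18 of 89 (20.2%), among them Atp5f1d (102.4, Zfp982, position 34 of 4746), and the cytosolic ribosomal proteins 19 of 84 (22.6%), both near the background.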

How the data were processed

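ChIP-seq of 42 HA-tagged KZFPs in F9 cells was analysed from the 42 peak lists of 54 labelled samples. The other 12 (4 empty vectors, 5 inputs, 3 libraries of HGTC8 stem cells) were not used here. The authors aligned reads with BWA to GRCm39, kept primary alignments, called peaks per library with MACS2 2.2.7.1 against the mixed input of the batch, removed peaks that overlap an empty vector peak, and filtered on q and fold, with a lower fold cutoff for short lists. SAMtools 1.19 and deepTools 3.5.4 are also in the submitters' processing notes. Each deposited peak has a fold enrichment, which is a ratio to input. The deposited -log10 p was not used, and the deposited -log10 q entered 1 alternative. The authors' display score was not used. No column of another series was found.

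Accessions were translated to chromosome numbers by their order, 37 of 25012 peaks on scaffolds were left out, and no peak ran past a chromosome end. Starts were those of all transcripts of protein-coding genes in GENCODE M39. A summit within 1000 bp of a start was given to every gene in reach. Sequences came from GRCm39 (summit windows of 200 bp, promoters of 300 bases), motifs from the study's supplement or textbook cores, and look-alikes from blastn 2.17.0 within each list. Python 3.11.15, numpy 2.4.6, scipy 1.17.1 and matplotlib 3.10.9 were used, and peak assignment and motif scanning were tested on simulated data. No test was run: 1 library per KZFP gives no replicate error. The peak lists give no read counts, and the read numbers that the study lists for its libraries entered no calculation.

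Genes and lists were chosen with earlier results of these data known, and the CpG split after its values were seen. Every gene of the set with a promoter peak and every KZFP bound there was named, with up to 4 genes per other list by fold (which only chose names, as folds of different lists are not on 1 scale) and the neighbours sharing a named peak. Alternatives changed the distance, the starts, the placement of peaks, the thresholds and the lists used.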

Additional observations from a re-analysis of the deposited data

How the results depend on the processing

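No paired analysis was possible because each KZFP has 1 library and no test was made. Requiring a fold of at least 15 in every list left 9 genes with a promoter peak, 9 peaks, 4 KZFPs and 11 genes of the other pathway lists, since fewer peaks pass. At that cutoff 8.65% of the genes and 10.9% of other protein-coding genes had a peak. The authors' higher fold cutoff was not applied to every list as an alternative. Leaving out 1 list at a time gave 13 to 21 genes, 14 to 23 peaks, 6 to 7 KZFPs, 10 to 19 genes of the other lists and 1 to 3 windows within 2 mismatches of the KZFP's motif. The lowest counts of genes, peaks, pathway genes and windows were those without Zfp982. Distances of 500 bp and 2000 bp, starts of protein-coding transcripts, 1 start per gene, any overlap of the peak with a start, the nearest start alone and a -log10 q of at least 5 gave 17 to 22 genes, against 21. In these the share of the genes minus that of other genes ran from -1.79 to 1.188 percentage points, and it was above 0 for starts of protein-coding transcripts and 1 start per gene. With the nearest start alone, Timm23, Tomm6 and Mrps18b had no peak, and at 500 bp Mrpl14, Mrps18b, Mrps21 and Tomm6 had none. With 1 start per gene Mrpl33, Mrpl36, Mrpl39 and Timm10 had none, and with any overlap of a start Mrps18b, Mrps21 and Timm10 had none. At 2000 bp Timm44 was added, by the peak beyond its 3′ end. With 1 library per KZFP repeatability could not be judged, and the peak lists give no read counts behind a fold.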

Other observations

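The peak at Tomm20 was second of 4746 in its list, with a -log10 q of 9016 and a width of 2129 bp, and it carried the Zfp982 motif only with 2 mismatches. It was a peak of Zfp982 alone: no other list overlapped it, as for every peak at these genes except the 2 at Mrps6. Among the 9 Zfp982 peaks at these genes, the 1 exact motif match was not at Tomm20 but at Mrpl14, at position 2773.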
